A study of Mus musculus with 60 samples.

Results

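Whole hippocampus of mice in the Handling group was compared with whole hippocampus of mice in the Homecage group across 13668 genes. The 10 libraries of this comparison, 5 per group, are part of 60 libraries in which whole, dorsal or ventral hippocampus was taken after Homecage, Handling, Restraint or Swim. Every mouse was wild type, of the C57BL/6 strain and at postnatal day 105, and tissue was taken 45 min after the treatment. The labels do not say what Handling consisted of, what sex the mice were, or whether whole, dorsal and ventral samples came from the same mice. RNA was enriched for poly(A) and sequenced on a HiSeq4000. The members are all genes of the table, with 1 entry kept for each Ensembl gene: 148 repeated entries were dropped from 13816.

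The hippocampus is a forebrain structure of excitatory pyramidal and granule neurons, inhibitory interneurons, glia and vessels, and is one of the brain regions richest in receptors for corticosterone. Within minutes of synaptic activity, calcium and MAP kinase signals reach factors already bound at promoters, such as CREB and SRF, and immediate early genes are transcribed without new protein synthesis. Their products are transcription factors (the Fos, Egr and Nr4a families), synaptic proteins such as Arc, and phosphatases that shut the MAP kinase signal off. A slower input comes from corticosterone, which enters cells, binds the glucocorticoid receptor and raises genes such as Per1, Sgk1, Tsc22d3 and Fkbp5.

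The tables hold the mean estimated count of each group, so values are group means. They are given in CPM, counts scaled to the same total in every group. The spread between single libraries enters only through the deposited p-values. The Homecage means summed to 20775072 counts and the Handling means to 19918572. Gene by gene, the standard error of a log2 fold change was taken as the one implied by the deposited p-value under a normal distribution. When genes were ordered by mean count and cut into 5 equal groups, that error had a median of 0.18 in the lowest group and 0.059 in the highest. A gene was called at an adjusted p under 0.05, over all genes of the table. Markers of hippocampal neurons were present in both groups: Camk2a, a kinase subunit of the excitatory synapse, had 3934 CPM in Homecage and 3850 in Handling. None of the 10 markers of these neurons was called, against 0.395% of all genes tested.

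After Handling, 54 genes were called, 0.395% of those tested. Of these, 50 were higher (0.366% of genes tested) and 4 were lower (0.0293%). At an unadjusted p under 0.05 there were 692 genes, or 5.06%. The higher genes included 12 immediate early transcription factors, 8 activity-regulated effectors and 8 known targets of the glucocorticoid receptor, with some genes in more than 1 of these lists. In the authors' deposited table their log2 fold changes ran from 0.24 to 2.49 with a median of 0.47: 6 genes were above 1, 16 lay between 0.5 and 1, and 28 were below 0.5. Over all genes tested the median log2 fold change in the authors' deposited table was -0.0058, and 47.1% of genes were above 0.

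**Figure D1:**
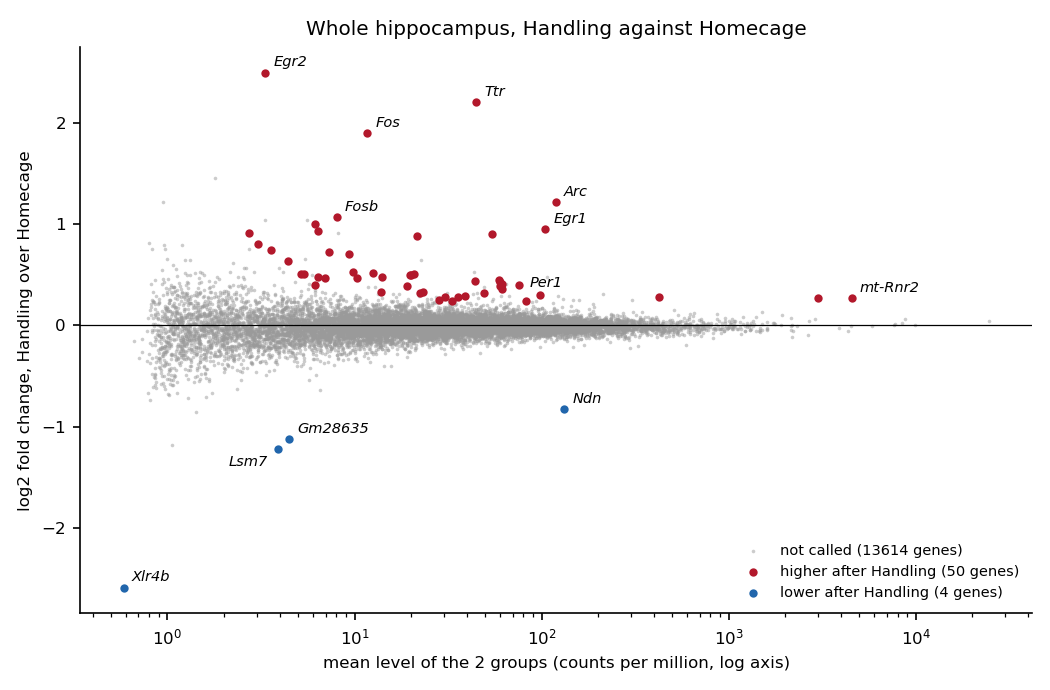
Log2 fold change of Handling over Homecage in whole hippocampus (vertical axis) against the mean level of the 2 groups in CPM (horizontal log axis), 1 point per gene. The 50 genes called higher reach a log2 fold change of 2.49 at Egr2, and the 4 genes called lower reach -2.59 at Xlr4b.

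Transcription factors of the immediate early class made up the top of the table. Fos, which pairs with Jun proteins to form the AP-1 factor, had a mean of 4.93 CPM in Homecage and 18.4 in Handling. Its log2 fold change in the authors' deposited table was 1.90 (implied SE 0.14, adjusted p = 5.32e-36), the lowest p of all genes tested. Egr2, a zinc finger factor, rose from 1.00 to 5.66 CPM. That is a log2 fold change of 2.49 in the authors' deposited table (implied SE 0.22, adjusted p = 1.65e-25), the largest rise among called genes. Egr1, the most studied Egr factor in synaptic plasticity, rose from 71.3 to 137.9 CPM. Egr1 carried a smaller fold on a tighter error than Egr2: its log2 fold change in the authors' deposited table was 0.95 (implied SE 0.076, adjusted p = 3.97e-32). Nr4a1, an orphan nuclear receptor, rose from 37.7 to 70.7 CPM, with a log2 fold change of 0.90 in the authors' deposited table (implied SE 0.072, adjusted p = 3.97e-32).

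Promoters of 6 called immediate early factors are shown to let the core of the cAMP response element, to which CREB binds, be compared: the first 5 hold it and the last, Egr2, does not. The windows come from RefSeq (GRCm38.p6), run 5′ to 3′ on the gene's own strand and cover the 250 bases before the first start listed for each gene. Other starts were not searched. The annotated gene begins at chr15:101254269 for Nr4a1, upstream of its window, and at chr10:67535475 for Egr2, inside its window. Which genes hold the core can depend on this choice of start. Capitals mark TGACG, or its reverse complement CGTCA.
Fos, chr12:85473640-85473889 (+ strand): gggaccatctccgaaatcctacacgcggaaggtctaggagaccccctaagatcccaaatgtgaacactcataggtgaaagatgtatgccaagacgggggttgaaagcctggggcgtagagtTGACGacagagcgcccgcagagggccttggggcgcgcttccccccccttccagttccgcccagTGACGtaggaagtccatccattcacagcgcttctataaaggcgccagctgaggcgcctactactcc
Fosb, chr7:19310046-19310295 (- strand): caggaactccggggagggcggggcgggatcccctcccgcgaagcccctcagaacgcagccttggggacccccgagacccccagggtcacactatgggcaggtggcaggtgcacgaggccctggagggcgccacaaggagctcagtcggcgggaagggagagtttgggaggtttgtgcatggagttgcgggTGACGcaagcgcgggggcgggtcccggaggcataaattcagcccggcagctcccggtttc
Nr4a1, chr15:101266596-101266845 (+ strand): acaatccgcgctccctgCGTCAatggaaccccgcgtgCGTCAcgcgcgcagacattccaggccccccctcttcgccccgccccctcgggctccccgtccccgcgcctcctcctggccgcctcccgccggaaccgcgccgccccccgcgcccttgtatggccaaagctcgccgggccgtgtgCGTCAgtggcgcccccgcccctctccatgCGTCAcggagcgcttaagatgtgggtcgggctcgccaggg
Junb, chr8:84978749-84978998 (- strand): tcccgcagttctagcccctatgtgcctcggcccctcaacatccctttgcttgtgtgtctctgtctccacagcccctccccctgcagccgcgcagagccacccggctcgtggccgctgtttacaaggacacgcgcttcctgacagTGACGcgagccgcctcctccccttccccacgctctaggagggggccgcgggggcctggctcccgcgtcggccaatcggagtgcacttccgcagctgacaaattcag
Egr4, chr6:85513590-85513839 (- strand): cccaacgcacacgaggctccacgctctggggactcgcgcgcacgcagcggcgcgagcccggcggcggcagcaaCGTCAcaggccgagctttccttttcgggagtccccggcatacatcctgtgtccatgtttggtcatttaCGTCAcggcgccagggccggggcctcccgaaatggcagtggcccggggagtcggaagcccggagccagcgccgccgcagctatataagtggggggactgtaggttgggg
Egr2, chr10:67535249-67535498 (+ strand): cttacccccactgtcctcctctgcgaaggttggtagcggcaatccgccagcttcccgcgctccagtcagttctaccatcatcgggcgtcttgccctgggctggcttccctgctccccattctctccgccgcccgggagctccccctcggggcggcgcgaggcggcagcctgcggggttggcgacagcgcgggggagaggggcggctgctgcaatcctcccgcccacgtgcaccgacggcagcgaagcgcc

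In Fos the core begins 129 and 66 bases before the start, in Fosb 60, in Junb 106, in Egr4 177 and 109, and in Nr4a1 233, 213, 69 and 40. Egr2, with the largest rise, has no such letters in its window. A promoter of 300 bases, from 250 before to 50 after the start, was matched by symbol for 40 of the 50 higher genes, for 3 of the 4 lower genes and for 10492 of all genes tested. On either strand, TGACG occurred in 20 of the 40 promoters of higher genes (50%) and in 31.1% of all. Among called immediate early factors it occurred in 8 of 10, the 8 being Egr4, Fos, Fosb, Junb, Klf4, Npas4, Nr4a1 and Nr4a3. The whole palindrome TGACGTCA, which contains that core, was in 3 of the 40 (Arl5b, Dio2 and Dusp1) against 3.21% of all.

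Other motifs were searched in the same windows and on both strands. AGAACA, a half-site of the glucocorticoid response element, was in 3 of the 40 promoters (Sgk1, Sult1a1 and Tnfrsf25) against 12.1% of all, and in 2 of the 8 promoters of called glucocorticoid receptor targets (25%), those of Sgk1 and Sult1a1. The E-box CACGTG was in 6 against 10.04%, TATAAA in 5 against 6.65%, and the CArG box of SRF in 1 (Dusp5) against 1.31%. Neither the Egr site GCGTGGGCG (1.20% of all) nor the AP-1 site TGANTCA (4.71% of all) was found in any of the 40. None of the motifs searched was found in the 3 promoters of lower genes. These are matches of letters in a short window and were not tested.

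The wider list of immediate early transcription factors held 25 genes, of which 23 were tested. Of these, 12 were called higher, against 0.366% of all genes tested, and none lower. The list median log2 fold change in the authors' deposited table was 0.52, and 22 of the 23 were above 0. Besides Fos, Egr1, Egr2 and Nr4a1, the members that rose were Fosb, Junb, Fosl2, Egr4, Nr4a3, Npas4, Klf4 and Ier2. Fosb rose from 5.22 to 10.8 CPM, and Junb from 15.3 to 28.0. Their log2 fold changes in the authors' deposited table were 1.07 (implied SE 0.15, adjusted p = 3.24e-10) and 0.88 (implied SE 0.16, adjusted p = 3.38e-05). Egr4 rose from 4.45 to 8.36 CPM and Ier2, a nuclear protein of the early response, from 1.90 to 3.56. Npas4, a factor that answers to calcium entry and adjusts inhibitory synapses, rose from 8.15 to 11.6 CPM. At a log2 fold change of 0.52 in the authors' deposited table (implied SE 0.14, adjusted p = 0.0331), Npas4 sat at the median of its list.

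Members of the same families differed in size and in call. Jun, the usual partner of Fos, had 73.6 CPM in Homecage and 77.3 in Handling, with a log2 fold change of 0.08 in the authors' deposited table (adjusted p = 0.998). Egr3 was at 0.17 and Nr4a2 at 0.29 on the log2 scale of the authors' deposited table, neither called. Nr4a3 was called at 0.30 in the authors' deposited table (adjusted p = 0.0204), a value close to that of Nr4a2, whose implied error was wider at 0.15 against 0.075. Atf3, a stress-response factor, had a log2 fold change of 0.80 in the authors' deposited table but only 0.70 CPM in Homecage and 1.22 in Handling, and was not called (adjusted p = 0.662).

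Activity-regulated effectors, the genes through which these signals reach synapses and cell growth, had 8 of 30 members called higher and none lower. That compares with 0.366% of all genes called higher, and the list median was 0.21 in the authors' deposited table. Arc, at chr15:74669083-74672570 (GRCm38), whose protein removes AMPA receptors from synapses, rose from 71.2 to 166.9 CPM. Its log2 fold change in the authors' deposited table was 1.22 (implied SE 0.11, adjusted p = 9.08e-25). The other 7 were Per1, Cdkn1a, Tiparp, Trib1, Gadd45b, Arl5b and Midn, with log2 fold changes of 0.24 to 0.51 in the authors' deposited table. Tiparp, which transfers ADP-ribose to proteins, rose from 16.6 to 23.6 CPM. Gadd45b, involved in the removal of DNA methylation, rose from 5.32 to 7.43. The call of Arl5b was lost when the trend of the authors' fold changes with GC content was subtracted (adjusted p = 0.0983). Several well-known activity genes were not called. Homer1, a scaffold of the postsynaptic density, had 109.9 and 134.2 CPM and a log2 fold change of 0.29 in the authors' deposited table (adjusted p = 0.289). Bdnf, the neurotrophin, had 43.2 and 46.7 CPM and a log2 fold change of 0.12 in the authors' deposited table (adjusted p = 0.998). None of 12 growth factor ligands, Bdnf among them, was called, against 0.395% of all genes tested.

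MAP kinase feedback regulators had 4 of 15 tested members called higher, against 0.366% of all genes tested, and none lower. The list median was 0.072 in the authors' deposited table. The 4 were Dusp1, Dusp5 and Dusp6, phosphatases that switch off MAP kinases, and Errfi1, an inhibitor of the EGF receptor. Dusp5, a nuclear phosphatase of ERK, rose from 17.2 to 24.5 CPM, Dusp6, its cytoplasmic relative, from 49.9 to 68.0, and Dusp1 from 10.3 to 14.8. Their log2 fold changes in the authors' deposited table were close to one another, at 0.51, 0.44 and 0.51. Errfi1 rose from 37.2 to 50.6 CPM. No Sprouty or Spred gene, another class of inhibitors in the list, was called, the highest being Spry4 at 0.21 in the authors' deposited table. Also uncalled were the phosphatases Dusp4, Dusp8 and Dusp14, at 0.19, 0.03 and 0.01 in the authors' deposited table. Nf1 and Rasa1, at -0.08 and 0.04 there, were not called either.

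Sik1 is a kinase that is itself a CREB target and keeps the CREB coactivators out of the nucleus. It was the only member called of 11 in the list of CREB coactivators and salt-inducible kinases, against 0.366% of all genes called higher. It rose from 7.10 to 11.6 CPM, with a log2 fold change of 0.71 in the authors' deposited table (implied SE 0.10, adjusted p = 1.14e-08). Its relatives Sik2 and Sik3 were at 0.05 and -0.05 in the authors' deposited table, and the list median was -0.035.

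**Figure D2:**
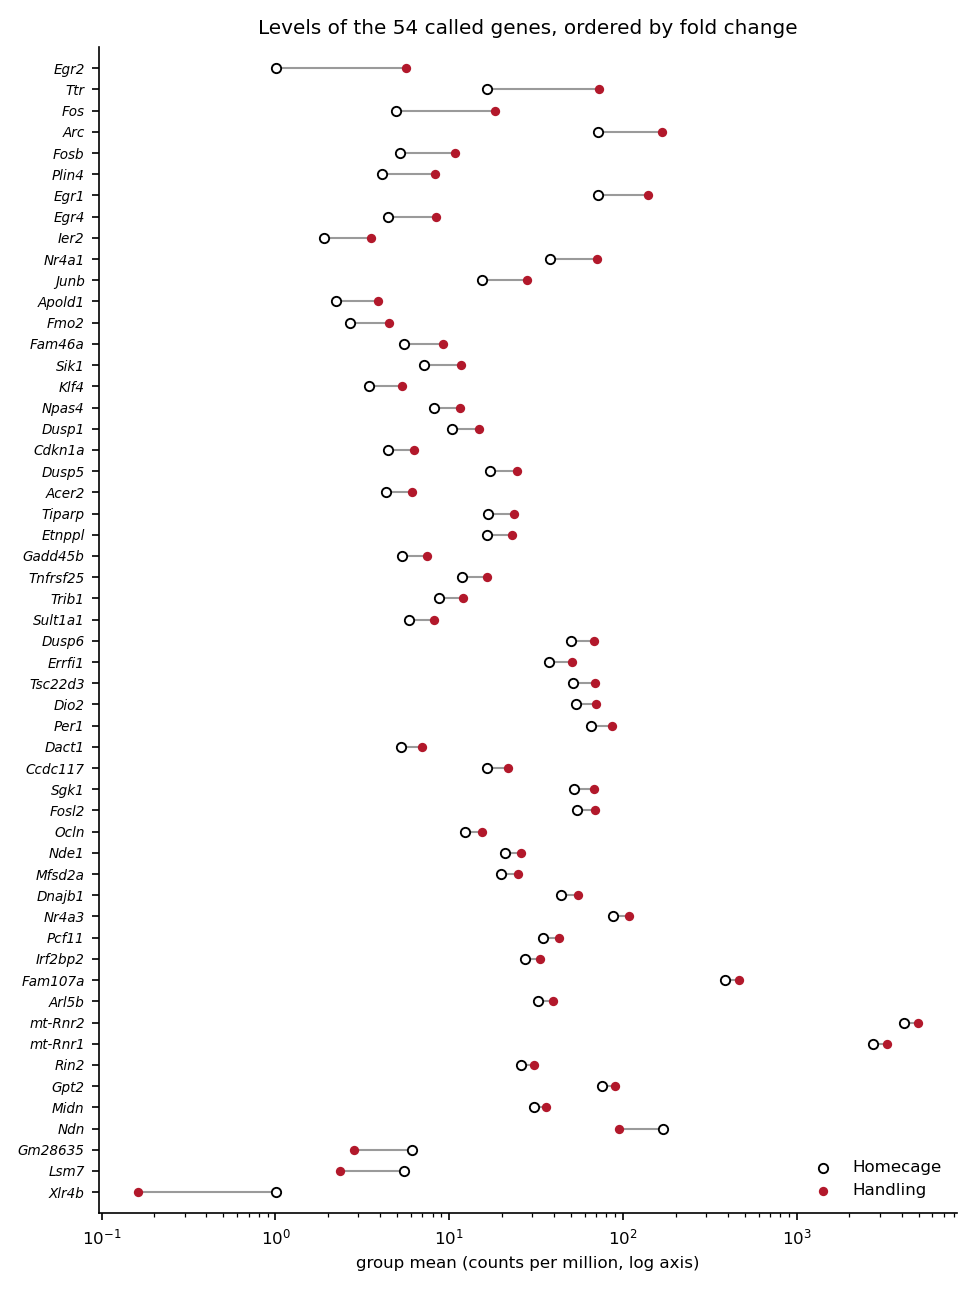
Group mean level of the 54 called genes in CPM (horizontal log axis), ordered by fold change, with Homecage as open circles and Handling as filled circles. Egr2 at the top goes from 1.00 to 5.66 and Xlr4b at the bottom from 1.00 to 0.163.

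Genes known as targets of the glucocorticoid receptor had 8 of 28 tested members called higher, against 0.366% of all genes tested, and none lower. The list median was 0.23 in the authors' deposited table, and 27 of the 28 were above 0. The 8 were Per1, Errfi1, Dusp1, Tsc22d3, Cdkn1a, Plin4, Sgk1 and Sult1a1, of which Per1, Errfi1, Dusp1 and Cdkn1a also stand in the lists of activity or MAP kinase genes. Tsc22d3, which encodes the leucine zipper protein GILZ, rose from 51.5 to 68.6 CPM, with a log2 fold change of 0.43 in the authors' deposited table (implied SE 0.084, adjusted p = 2.75e-04). Sgk1, a kinase that controls ion channels and is induced by corticosteroids, rose from 51.9 to 67.6. Plin4, a protein of lipid droplets, rose from 4.09 to 8.24 CPM, with a log2 fold change of 1.01 in the authors' deposited table (implied SE 0.23, adjusted p = 0.00617). Cdkn1a, an inhibitor of the cell cycle, rose from 4.42 to 6.30.

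Other targets were not called. Fkbp5, the cochaperone that lowers the receptor's affinity for its hormone, had 69.1 and 77.1 CPM and a log2 fold change of 0.16 in the authors' deposited table (implied SE 0.059, adjusted p = 0.507). Nfkbia, the inhibitor of NF-kB, was at 0.14 and Txnip, an arrestin that limits glucose uptake, at 0.21 in the authors' deposited table, both uncalled. The receptors themselves were measured at similar levels in both groups: Nr3c1, the glucocorticoid receptor, had 93.9 and 92.8 CPM, and Nr3c2, the mineralocorticoid receptor, 193.0 and 184.9. Neither these nor the other 9 tested members of the list of receptors and cofactors were called, against 0.395% of all genes tested.

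Per1, a light- and hormone-responsive clock gene, was the only called member of 16 clock genes, against 0.366% of all genes called higher. It rose from 65.6 to 86.6 CPM, with a log2 fold change of 0.40 in the authors' deposited table (implied SE 0.066, adjusted p = 1.39e-06). Per2 had 58.3 and 68.2 CPM and a log2 fold change of 0.22 in the authors' deposited table (adjusted p = 0.149). Per3, Arntl and Dbp, other parts of the oscillator, were at -0.07, -0.02 and -0.05 in the authors' deposited table.

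Early genes of vessel walls that respond to blood flow had 2 of 12 members called higher, Apold1 and Klf4, and none lower. Over all genes tested, 0.366% were called higher. The list median was 0.16 in the authors' deposited table, and 8 of the 12 were above 0. Apold1, an early gene of endothelial cells, rose from 2.23 to 3.87 CPM, with a log2 fold change of 0.81 in the authors' deposited table (implied SE 0.18, adjusted p = 0.00254). Klf4, a zinc finger factor that also stands among the immediate early factors, rose from 3.46 to 5.36. Klf2 and Cyr61 had log2 fold changes of 0.57 and 0.56 in the authors' deposited table, at adjusted p-values of 0.247 and 0.149. Edn1, the vessel-constricting peptide endothelin, was the lowest of the list at -0.55 in the authors' deposited table (adjusted p = 0.574). Mfsd2a, the lipid transporter of the blood-brain barrier, rose from 19.9 to 24.8 CPM, and Ocln, the tight-junction protein occludin, from 12.3 to 15.5. The call of Ocln was lost when the trend of the authors' fold changes with GC content was subtracted (adjusted p = 0.0704). No marker of endothelial cells themselves was called among 12, against 0.395% of all genes tested.

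Heat shock and unfolded protein genes had 1 member called of 26, Dnajb1, a cochaperone of HSP70, which rose from 44.0 to 54.8 CPM. The share called higher over all genes tested was 0.366%. Of the 26, 25 were above 0, with a list median of 0.14 in the authors' deposited table against -0.0058 over all genes. The highest of the others, Hspa1b and Hspa1a, which encode near-identical HSP70 proteins and can share reads, were at 0.30 and 0.29 in the authors' deposited table and not called. Notch pathway genes (19 tested) and NF-kB factors and inhibitors (11 tested) held no called member, against 0.395% of all genes tested. Hes5, the Notch effector of neural progenitors, had 5.40 and 5.57 CPM. Nor was any of 97 cytosolic ribosomal proteins or 92 nuclear subunits of the respiratory chain called, with list medians of 0.016 and 0.022 in the authors' deposited table.

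Among the called genes, 17 stood in none of the lists. Dio2, the deiodinase with which glia activate thyroid hormone, rose from 53.2 to 69.8 CPM. Etnppl, an enzyme of phospholipid breakdown found in astrocytes, rose from 16.5 to 23.0, and Gpt2, a mitochondrial alanine transaminase, from 75.7 to 89.1. Fam107a, which binds actin and is known as a stress-induced gene, rose from 384.6 to 463.3. These 4 were chosen after their values were seen, and each had a log2 fold change between 0.24 and 0.49 in the authors' deposited table. Markers of astrocytes were not called, 0 of 12 against 0.395% of all genes tested. Their list median was 0.043 in the authors' deposited table.

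The other genes outside the lists were of mixed function. Fam46a, which lengthens poly(A) tails, rose from 5.51 to 9.14 CPM and Fmo2, a monooxygenase, from 2.67 to 4.48. Their log2 fold changes in the authors' deposited table were 0.73 and 0.75. Pcf11, which ends transcription at the poly(A) site, rose from 34.8 to 42.8 CPM, a call that was lost when the GC trend was subtracted. Irf2bp2, a transcriptional corepressor, rose from 27.3 to 33.3. Signalling genes of this set were Dact1, which acts on Wnt signals through Dishevelled, and Tnfrsf25, the death receptor DR3. Dact1 rose from 5.30 to 6.998 CPM and Tnfrsf25 from 11.8 to 16.4. Acer2, a ceramidase of the Golgi, rose from 4.29 to 6.10. Nde1, a partner of dynein, rose from 20.8 to 25.9 CPM, and Rin2, an exchange factor for Rab5, from 25.8 to 30.7. Ccdc117 rose from 16.5 to 21.8. All of these log2 fold changes apart from those of Fam46a and Fmo2 were 0.51 or less in the authors' deposited table.

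**Figure D3:**
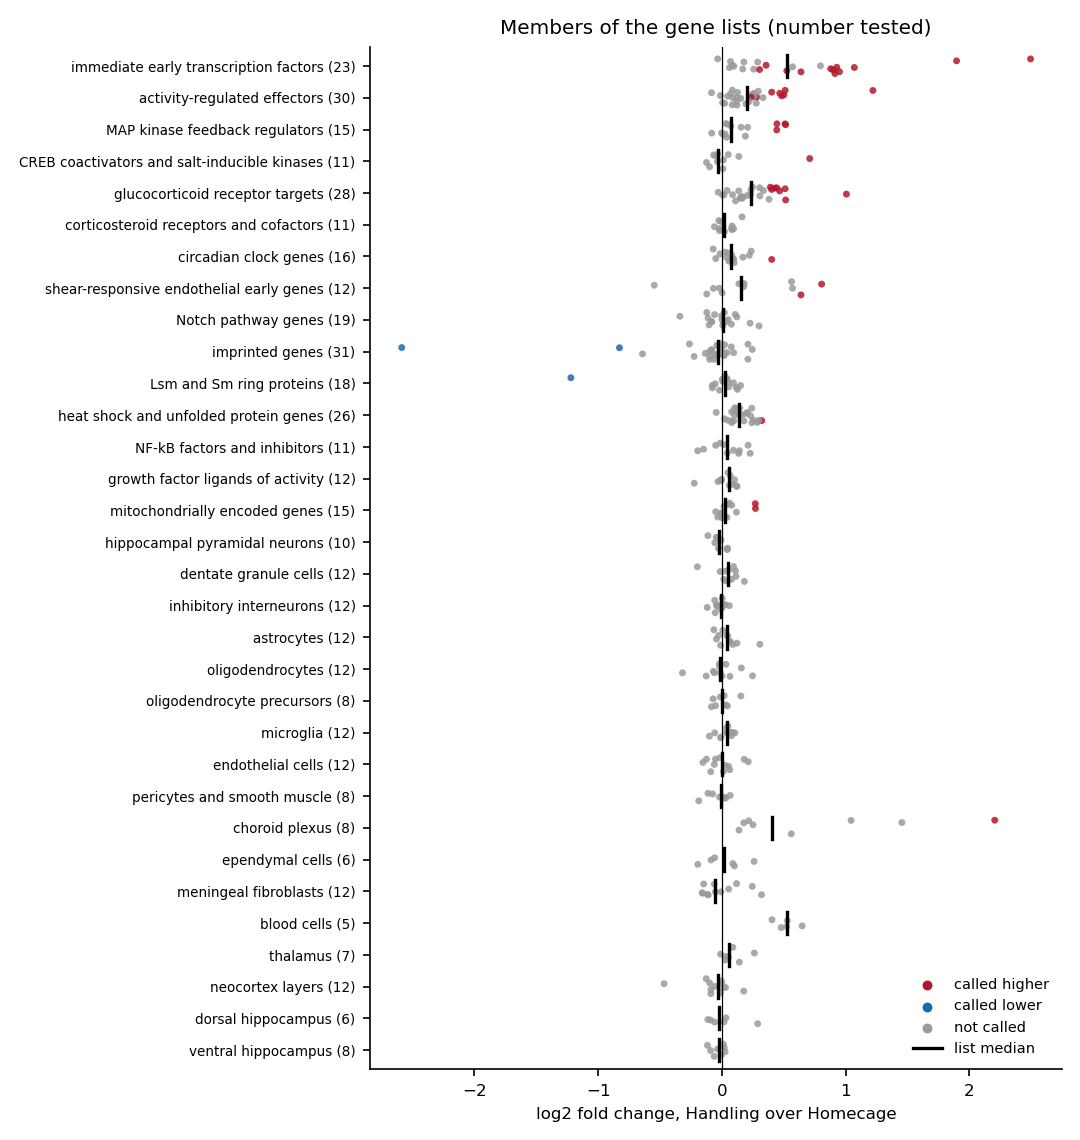
Log2 fold change of Handling over Homecage for each tested member of 32 of the gene lists (1 point per gene, list median as a bar, number tested in brackets). Immediate early transcription factors have 12 members called higher and a median of 0.52, while the medians of markers of neurons and of glia lie near 0.

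The 2 mitochondrial ribosomal RNAs were called higher, and none of the other 13 mitochondrially encoded genes was, against 0.366% of all genes tested. mt-Rnr1 had 2740 CPM in Homecage and 3296 in Handling, and mt-Rnr2 had 4121 and 4960. Both had a log2 fold change of 0.27 in the authors' deposited table, at adjusted p-values of 0.0291 and 0.0331. Their messenger-coding neighbours on the same circle were not called: mt-Co1 was at 0.04 and mt-Nd1 at -0.01 in the authors' deposited table. Both calls were lost once the trend of the authors' fold changes with GC content was subtracted (adjusted p = 0.0965 and 0.103).

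Ttr, the thyroxine carrier that the choroid plexus makes in great amounts, had the second largest rise of the called genes. It had 16.4 CPM in Homecage and 72.6 in Handling. Its log2 fold change of 2.20 in the authors' deposited table had the widest implied error of the called genes, 0.55 (adjusted p = 0.0277). Over the same Homecage libraries, Ttr was at 1.86 after Restraint (adjusted p = 0.00737) and 1.45 after Swim, uncalled, in the authors' deposited tables. Its levels were 60.3 CPM in whole Restraint, 46.9 in whole Swim, 40.5 in dorsal Homecage and 27.6 in ventral Homecage. The choroid plexus is a secretory tissue of the ventricles next to the hippocampus. Of 16 choroid plexus markers, 8 were tested and all 8 were above 0. Of the 8, 1, Ttr, was called higher, against 0.366% of all genes tested. The list median was 0.41 in the authors' deposited table. Clic6 and F5, other markers, were at 1.04 and 1.45 in the authors' deposited table, uncalled. The summed level of the 8 was 186.3 CPM in Homecage and 273.6 in Handling, and their part in the other results was not tested. Without the 8 genes, a choice made after seeing the data, 49 genes were called higher and the same 4 lower.

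Markers of blood cells, most of them haemoglobin genes, were above 0 for all 5 tested, and none was called. Their list median was 0.52 in the authors' deposited table, and their summed level was 198.6 CPM in Homecage and 281.5 in Handling. After Handling the same list had a median of -0.20 in dorsal and -0.47 in ventral hippocampus. Over the same whole Homecage libraries, Hbb-bt, Hba-a1, Hbb-bs and Hba-a2 were at 0.56 to 0.66 after Restraint and 0.84 to 1.00 after Swim. Those are log2 fold changes of the authors' deposited tables, all uncalled. The part of blood in the results was not tested. For the other 15 cell type lists, list medians in the authors' deposited table lay between -0.057 for meningeal fibroblasts and 0.053 for thalamus, with no member called. Over all genes tested 0.395% were called, so lists this short would rarely hold a call. In tissue of mixed cells, a change in the number of cells of a type and a change in RNA per cell cannot be told apart.

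Of the 4 genes that fell, Ndn rests on the most counts, a mean of 3507 estimated counts per library in Homecage and 1888 in Handling. Ndn encodes necdin, a growth-restraining protein of neurons, and is expressed from the paternal chromosome at chr7:62346569-62350262 (GRCm38). Scaled, it had 168.8 CPM in Homecage and 94.8 in Handling, and its log2 fold change was -0.83 in the authors' deposited table (implied SE 0.12, adjusted p = 2.87e-08). Its imprinted neighbours on chromosome 7 were not called. Magel2 had 2.55 and 2.38 CPM, and Snrpn 741.9 and 751.0, with log2 fold changes of -0.10 and 0.02 in the authors' deposited table. In the list of imprinted genes 2 of 31 tested members were called lower, Ndn and Xlr4b, against 0.0293% of all genes tested, and none higher.

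Xlr4b lies on the X chromosome (chrX:73214333-73222453) in a cluster of near-identical copies, so its reads may be split among copies and its value is uncertain. It had a mean of 20.9 estimated counts per library in Homecage and 3.24 in Handling, with a log2 fold change of -2.59 in the authors' deposited table (implied SE 0.42, adjusted p = 6.07e-07). Its relatives Xlr3b, with 162.5 and 104.1 estimated counts, and Xlr3a, with 37.7 and 20.1, were not called. Both lay below 0, at log2 fold changes of -0.64 and -0.86 in the authors' deposited table. Lsm7, at chr10:80852821-80855209, is a protein of the ring that binds the ends of RNAs in splicing and decay. It had 5.49 and 2.34 CPM. Its log2 fold change of -1.22 in the authors' deposited table (implied SE 0.14, adjusted p = 3.58e-15) stood apart from the other 17 Lsm and Sm genes, which were uncalled. Gm28635, a gene model, fell from 6.06 to 2.82 CPM. It overlaps the protein-coding genes Ctnnd1, Btbd18, Selenoh and Tmx2 at chr2:84601439-84678041, so its reads cannot be assigned with certainty. Ctnnd1, Selenoh and Tmx2 lie on its strand. Of these, Ctnnd1 and Tmx2 were at 0.16 and 0.02 in the authors' deposited table, and Selenoh was not looked at.

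Group sums may show where reads were shared, since a count split among genes or copies can leave a fraction. How reads were counted is not stated, so this reading was not tested. Of the 50 higher genes, 44 had sums over 5 libraries within 0.1 of a whole count in both groups, against 74.6% of all genes tested, and the other 6 were Dnajb1, Fam107a, Fmo2, Gpt2, Irf2bp2 and mt-Rnr2. Of the lower genes, Lsm7, Xlr4b and Gm28635 did not have such sums. When only genes with such whole sums were tested, a choice made after seeing the data, 45 were called higher and 1 lower.

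Values just outside the threshold belonged to Plat, Arid5a, Sdc4, P4ha1 and Slc6a6, with adjusted p-values from 0.052 to 0.0746 in the authors' deposited table. Just inside it were Midn and Rin2, both at 0.0484. Plat, the tissue plasminogen activator, had 31.3 and 37.4 CPM, and Slc6a6, the taurine transporter, had 157.2 and 136.0.

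Dorsal and ventral hippocampus were also sampled after Handling, from libraries that do not enter the whole-hippocampus table. Whether they came from the same mice is not stated, so recurrence between regions may not be independent. In dorsal hippocampus 16 genes were higher (0.118% of those tested) and 1 was lower (0.00735%). In ventral hippocampus 112 were higher (0.813%) and 6 lower (0.0435%). All 50 genes called higher in whole hippocampus were above 0 in dorsal hippocampus, where 46.9% of all genes were above 0, and 37 of them had an unadjusted p under 0.05 there. In ventral hippocampus 47 were above 0, against 51.0% of all genes, and 41 had an unadjusted p under 0.05. The dorsal table called 14 of the 50, which is 28% of the whole-hippocampus genes and 87.5% of the dorsal ones. The ventral table called 27 of them, 54% of the whole-hippocampus genes and 24.1% of the ventral ones. Across the 13487 genes in both tables, Pearson's r between whole and dorsal fold changes was 0.43, and 0.31 between whole and ventral fold changes across 13594; genes are not independent replicates.

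A core of 13 genes was called higher in all 3 dissections: Fos, Fosb, Fosl2, Egr1, Egr2, Nr4a1, Npas4, Arc, Sik1, Dusp1, Dusp5, Tiparp and Sgk1. Because the dissections may share mice, these are not taken as 3 independent results. Fos had log2 fold changes of 1.90 in whole, 1.68 in dorsal and 2.02 in ventral hippocampus in the authors' deposited tables. Egr2 was at 2.49, 2.96 and 2.69, and Arc at 1.22, 1.14 and 1.27, in the same order, in the authors' deposited tables. None of the 3 was called different between whole hippocampus and either region: for Fos, the 95% interval of whole minus dorsal ran from -0.18 to 0.62 and that of whole minus ventral from -0.54 to 0.29. Another 14 genes were called in whole and ventral but not dorsal hippocampus, among them Per1, Junb, Egr4, Klf4, Tsc22d3 and Dusp6, and Trib1, a pseudokinase, in whole and dorsal. The remaining 22, such as Cdkn1a, Plin4, Dio2 and Fam107a, were called in whole hippocampus alone of the 3. Fmo2 was at 0.75 in whole hippocampus, 0.09 in dorsal and -0.06 in ventral in the authors' deposited tables.

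**Figure D4:**
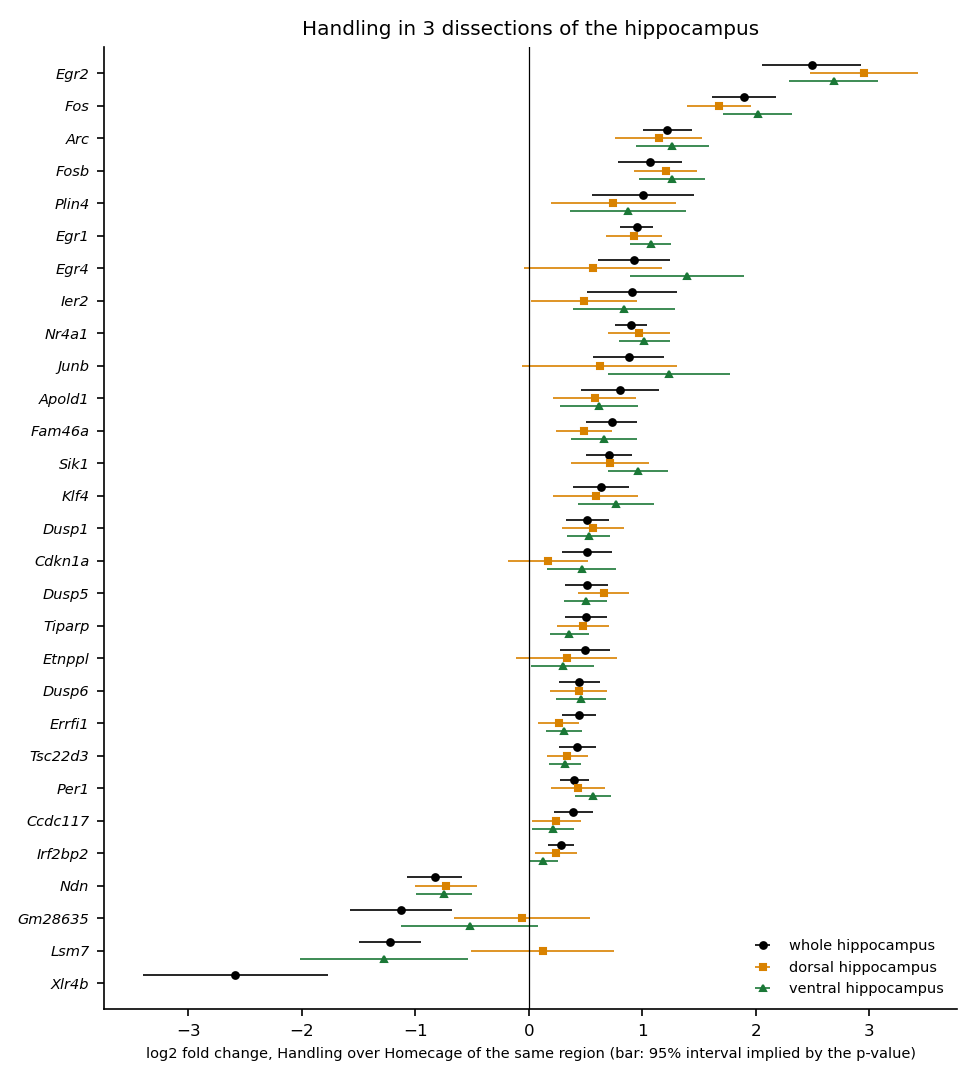
Log2 fold change of Handling over Homecage of the same region for the 25 genes called higher with the lowest p and the 4 called lower, in whole (circles), dorsal (squares) and ventral hippocampus (triangles), with 95% intervals implied by the p-values. Ndn lies below 0 in all 3 regions, at -0.83, -0.73 and -0.75, and Lsm7 does not.

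The difference between regions was tested gene by gene, taking the errors of the 2 regions as independent although mice may be shared. No gene differed between whole and dorsal Handling (0 of 13487, 0%), with 82 genes at an unadjusted p under 0.05. Such a threshold would give far more by chance, so the test was conservative. The 0 calls therefore do not show that the regions agree. Between whole and ventral Handling 7 genes differed (0.0515%), none of them called in whole hippocampus. Errors implied under a t distribution come close to 0 where a p-value is very small, so that a gene such as Fos or Egr2 then differs by construction. The counts they gave, 10 genes for whole minus dorsal and 51 for whole minus ventral, are not read as differences. The 10 also hold genes called in neither region, such as Gm10146, Gm20425, Gm10273 and Rpl10, which this reason does not cover. The 51 include genes called in whole hippocampus: Arc, Egr1, Egr2, Egr4, Fos, Fosb, Nr4a1, Per1, Sik1, Tnfrsf25 and Ttr. Of the 7, 6 had the lower fold change in whole hippocampus: Trpv4, Kl, Enpp2, Col9a3, Abca4 and Gm28539. The other, Gm9797, was at 0.52 in whole and -1.005 in ventral hippocampus in the authors' deposited tables. Kl and Enpp2 are markers of choroid plexus. Kl, or klotho, a coreceptor of the hormone FGF23, had a log2 fold change of 0.14 in whole and 1.72 in ventral hippocampus, and Enpp2, which makes lysophosphatidic acid, 0.25 and 2.46, in the authors' deposited tables. All 8 tested choroid plexus markers were called higher in ventral Handling, with a median of 2.20, against 1 of 8 and 0.41 in whole hippocampus in the authors' deposited tables. Ttr reached 1168 CPM in ventral Handling from 27.6 in ventral Homecage.

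Lower genes differed in how far they recurred. Ndn was called lower in all 3 dissections, which may share mice. Its levels were 130.2 and 78.3 CPM in dorsal Homecage and Handling and 173.7 and 104.5 in ventral. Lsm7 had a log2 fold change of 0.12 in dorsal and -1.28 in ventral hippocampus in the authors' deposited tables, the latter at an adjusted p of 0.0740. From the authors' fold changes, the whole minus dorsal difference for Lsm7 was -1.34 (95% interval -2.03 to -0.66, adjusted p = 0.734), so it was not called. Gm28635 was at -0.06 and -0.52 in dorsal and ventral hippocampus in the authors' deposited tables, uncalled in both, and Xlr4b was not tested in these 2 tables. Over the same whole Homecage libraries, Xlr4b was at -1.23 after Restraint, uncalled, and -1.85 after Swim (adjusted p = 0.0166) in the authors' deposited tables. Its whole-hippocampus level was 1.00 CPM in Homecage, 0.163 in Handling, 0.423 in Restraint and 0.273 in Swim. Xlr3a was at 0.13 after Restraint, uncalled, and -1.18 after Swim (adjusted p = 0.0219) in the authors' deposited tables.

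Ventral and dorsal hippocampus differ widely at rest, with 5283 genes called between their Homecage groups (38.4%). Of the 13754 genes tested there, 2751 were called lower and 2532 higher in ventral hippocampus. Of the 50 genes higher after Handling, 25 were among the 5283, 20 lower and 5 higher in ventral hippocampus. Among the 20, Egr1 was at -0.75, Arc at -0.93 and Egr4 at -1.58 for ventral over dorsal in the authors' deposited table. Fosl2 was the clearest of the 5, at 0.85 in the authors' deposited table.

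Restraint and Swim were measured in whole hippocampus against the same 5 Homecage libraries, so their values share an error with those of Handling. Differences from Handling were tested with the shared Homecage libraries counted in both errors, which makes these errors upper bounds. Restraint had 69 genes called higher (0.504% of genes tested) and 5 lower (0.0365%), and Swim had 46 higher (0.336%) and 8 lower (0.0585%). Fos was at 1.90 after Handling, 1.92 after Restraint and 1.95 after Swim, and Fosb at 1.07, 1.12 and 1.08, in the authors' deposited tables. Egr2 was at 2.49, 2.06 and 2.05 and Arc at 1.22, 0.84 and 0.92, in the authors' deposited tables. None of these 4 was called different from Handling: from the authors' values, the 95% interval of Restraint minus Handling ran from -0.32 to 0.36 for Fos and from -0.70 to -0.06 for Arc (adjusted p = 1.00 for both). Glucocorticoid targets gave Sgk1 values of 0.39, 0.86 and 0.81 and Dusp1 values of 0.51, 1.03 and 0.86, in the authors' deposited tables. From the authors' values, the difference of Restraint from Handling was 0.47 for Sgk1 (95% interval 0.24 to 0.69, adjusted p = 0.122) and 0.52 for Dusp1 (0.26 to 0.78, adjusted p = 0.172).

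**Figure D5:**
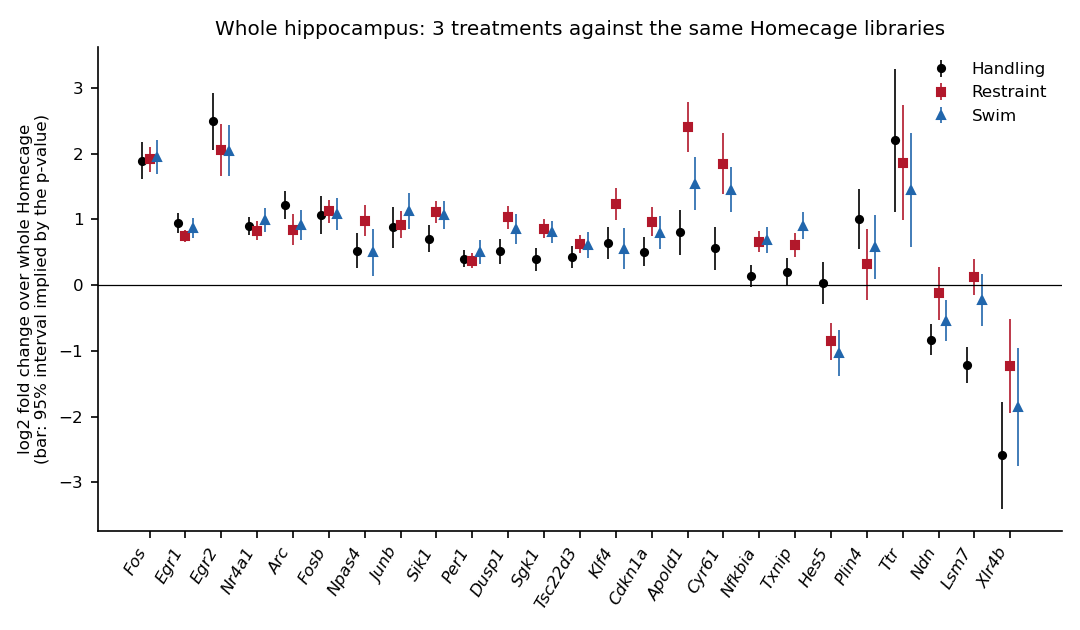
Log2 fold change over whole Homecage after Handling (circles), Restraint (squares) and Swim (triangles) for 25 named genes, with 95% intervals implied by the p-values; all 3 treatments share their Homecage libraries. Fos lies at 1.90, 1.92 and 1.95, while Apold1 lies at 0.81, 2.41 and 1.55.

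Restraint differed from Handling at 4 genes (0.0294%), all of them higher in Restraint: Apold1, Cyr61, Nfkbia and Lsm7. Apold1 was at 0.81 after Handling and 2.41 after Restraint in the authors' deposited tables, a difference of 1.61 (95% interval 1.10 to 2.12, adjusted p = 5.48e-06). Cyr61, a matrix protein induced by stretch and flow, was at 0.56 and 1.85 in the authors' deposited tables, a difference of 1.28 (0.71 to 1.85, adjusted p = 0.0333). Nfkbia was at 0.14 and 0.66 in the authors' deposited tables, and its difference was no longer called when the GC trend was subtracted. For Lsm7 it was the Handling group that stood apart, with 2.34 CPM against 5.49 in Homecage, 5.97 in Restraint and 4.67 in Swim. Swim differed from Handling at 1 gene (0.00734%), Txnip, with 0.21 after Handling and 0.91 after Swim in the authors' deposited tables (difference 0.70, 95% interval 0.41 to 0.99, adjusted p = 0.0376). Hes5 was at 0.04 after Handling, -0.86 after Restraint and -1.03 after Swim in the authors' deposited tables, but its differences from Handling missed the threshold (adjusted p = 0.108 and 0.0816). Both differences of Hes5 were called when the GC trend was subtracted. Errors implied under a t distribution gave 33 genes for Restraint and 36 for Swim. These counts are likewise not read as differences, though the reason given above does not cover every gene in them.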

How the data were processed

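Poly(A)-enriched RNA of 10 whole-hippocampus samples was sequenced, and the deposited tables compare 2 groups of 5 libraries each. Per the file headers, the authors deposited a group mean for each gene, which from its decimals is a mean of estimated counts, a fold change as a ratio, its log2, and a p-value with its adjusted p-value. Bowtie 0.12.2 and mm8 are listed, without roles, per the submitters' processing notes; how reads were counted, scaled and tested is not stated in the labels or headers. Recomputed from the deposited p-values, the adjustment is Benjamini-Hochberg over the table. Tables hold only genes above a level: the lowest mean over both groups was 12.1 counts.

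From these values, 1 entry per gene was kept, CPM were computed from each group's total, and standard errors were implied from the deposited p-values. Differences between 2 tables' fold changes were tested against a normal distribution, two-sided, with Benjamini-Hochberg adjustment over all shared genes (Python 3.11.15, pandas 2.3.3, scipy 1.17.1, statsmodels 0.14.6), after tests on simulated data. The design text gives 5 mice for a condition but not whether each library is 1 mouse, so the p-values measure only the spread between these samples, which may be technical. Positions come from GENCODE M21 (GRCm38) by Ensembl identifier. Alternatives covered scaling, filters at 50 and 200 counts, thresholds, and trends with GC content and length.

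Members and gene lists were chosen with earlier results of these data known, so counts over a list are descriptions. Named genes are those called, with the 25 higher and 10 lower genes of lowest p in full, up to 4 per list, the 5 just outside the threshold, up to 6 per direction of each difference test, and 9 genes fixed by name; members named beyond these, and the motifs searched, were chosen after values were seen.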

Additional observations from a re-analysis of the deposited data

Results flagged for a closer look

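Fold changes after Handling differed between whole and ventral hippocampus, by the test of the difference itself, at 7 genes. The whole minus ventral difference in log2 fold change was -2.48 for Trpv4, -1.58 for Kl, -2.21 for Enpp2, -1.46 for Col9a3, -1.91 for Gm28539, -2.08 for Abca4 and 1.53 for Gm9797. All 8 tested choroid plexus markers, Kl and Enpp2 among them, were called higher in the ventral Handling table. The part of choroid plexus tissue in these differences was not tested. No gene differed in this way between whole and dorsal hippocampus, where 82 genes had an unadjusted p under 0.05. These are fewer than that threshold would give by chance, so the absence of calls does not show agreement. A check for single libraries far from their group could not be made from group means.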

How the results depend on the processing

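All 54 calls remained under total-count scaling, median centring and subtraction of a length trend. Filters changed the counts: 34 genes (33 higher, 1 lower) were called with a mean of at least 200 counts, a filter that left 18 of the 54 untested. Stricter rules called 31 genes (27 higher) at an adjusted p under 0.01, 23 (19 higher) by Bonferroni, and 26 (22 higher) with a log2 fold change of at least 0.5; at 0.1 there were 8 lower genes. Among genes with whole sums of counts 1 was lower. Subtracting the GC trend dropped Arl5b, Ocln, Pcf11, mt-Rnr1 and mt-Rnr2 and added Arid5a, Dnajb5 and Per2, so that 2 clock genes and 0 mitochondrially encoded genes were called. With a mean of at least 50 counts Xlr4b was untested and 1 imprinted gene was lower. Errors from a t distribution are close to 0 at very small p-values by construction, and gave 10 genes for whole minus dorsal Handling, 51 for whole minus ventral, 33 for Restraint minus Handling and 36 for Swim minus Handling. Whole minus ventral fell to 4 with a mean of at least 50 counts. Restraint minus Handling stayed at 4 with the GC trend subtracted, with Hes5 in place of Nfkbia. Swim minus Handling rose to 2 with the GC trend subtracted, Hes5 being added, and to 4 at an adjusted p under 0.1. Where no cause is named, the cause was not tested. Leaving out single libraries and the count models were not run because the tables hold group means. No paired analysis was possible because the tables hold no values of single libraries. Depth limits the genes of lowest count most: in the lowest of 5 equal groups by mean count the smallest called log2 fold change was 0.51.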
